A study of Mus musculus with 6 samples.

Results

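Lung endothelial identity genes are the genes by which the cells lining lung vessels are recognised: receptors for vascular growth factors and vasoactive peptides, junction proteins, haemostatic proteins and the transcription factors that maintain the lineage. The set comprised 33 genes chosen by symbol, and every array probe whose accession RefSeq pairs with one of these symbols was taken, 44 probes of the 41174 on the array. 32 of the 33 genes were tested, among 12968 genes in all. Prox1, the transcription factor of lymphatic endothelium, was the exception: neither of its 2 probes was well above background on any array. The other 32 were well above background on all 6 arrays, so none entered the test through a single group.

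RNA came from the lungs of C57BL/6 mice of 3 genotypes, with 2 arrays each: WT, hCD2-T-bet tg/wt and hCD2-T-bet tg/tg. The transgene overexpresses T-bet, the T helper 1 transcription factor encoded by Tbx21, in T cells: hCD2 stands for human CD2, whose regulatory sequences are active in that lineage. Endothelial cells are not its stated target. The series relates these lungs to pulmonary alveolar proteinosis, in which surfactant fills the air spaces. No treatment, time or age is given for the mice in the sources used here, and it is not stated that the 2 arrays of a group came from separate animals, so p-values measure the spread between arrays, which may be technical.

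Levels are log2 signals relative to the 75th percentile of the same array, so a level of 0 equals that percentile and a difference of 1 is 2-fold. Levels of different genes come from different probes and cannot be ranked against each other. The 75th percentiles lay between 794 and 1204 intensity units, replicate arrays correlated at 0.996 to 0.997 across genes, and WT with tg/tg arrays at 0.921 to 0.922. Tbx21 followed the labels: -0.70 and -0.71 (WT), 1.30 and 1.34 (tg/wt), 3.25 and 3.26 (tg/tg). The lung markers Sftpb, Scgb1a1 and Ager were well above background on all 6 arrays, and Sftpc was saturated on all 6. The WT and tg/tg arrays shared slide 1, while both tg/wt arrays lay on slide 2, so slide and genotype cannot be told apart in any comparison with tg/wt. Each array holds RNA of the whole lung, on a scale relative to that array. Fewer endothelial cells, less RNA per cell and more RNA from other cells therefore cannot be told apart.

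As background, the endothelial lineage is kept by VEGF signalling through Kdr, angiopoietin signalling through Tek, and ETS and SoxF transcription factors. In the lung the alveolar capillary has a general cell type and a large, thin cell type specialised for gas exchange, the aerocyte, in which Ednrb and Apln are characteristic genes, while the apelin receptor Aplnr marks the general type. Resting vessels are anticoagulant: thrombomodulin (Thbd) captures thrombin, and the endothelial protein C receptor (Procr) presents protein C to that complex.

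In tg/tg lungs endothelial identity genes were mostly lower than in WT, but not by a common factor and not all of them. Of the 32 tested, 28 fell and 4 rose (limma, Benjamini-Hochberg adjusted p below 0.05). Across all 12968 genes the same rule called 40.8% lower and 33.8% higher. The median log2 difference was -0.96 for the members and -0.05 for all genes. Ednrb fell furthest, 10.5-fold, followed by Aplnr (7.07-fold), Lyve1 (6.36-fold) and Thbd (4.68-fold). Procr (6.16-fold), Edn1 (1.95-fold), Sox17 (1.54-fold) and Cd34 (1.08-fold) rose. The falls were 2-fold or more in 15 members and smaller in 13. Replicate arrays differed by a median of 0.02 in WT and 0.04 in tg/tg among members, so most of these differences were many times the spread. For each of the 32 genes the 2 tg/tg arrays lay on the same side of both WT arrays, which holds for 47.7% of all genes in the lower direction and 40.2% in the higher. Standard errors lay between 0.0314 and 0.144, the largest being that of Erg, whose WT arrays differed by 0.39.

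**Figure D1:**
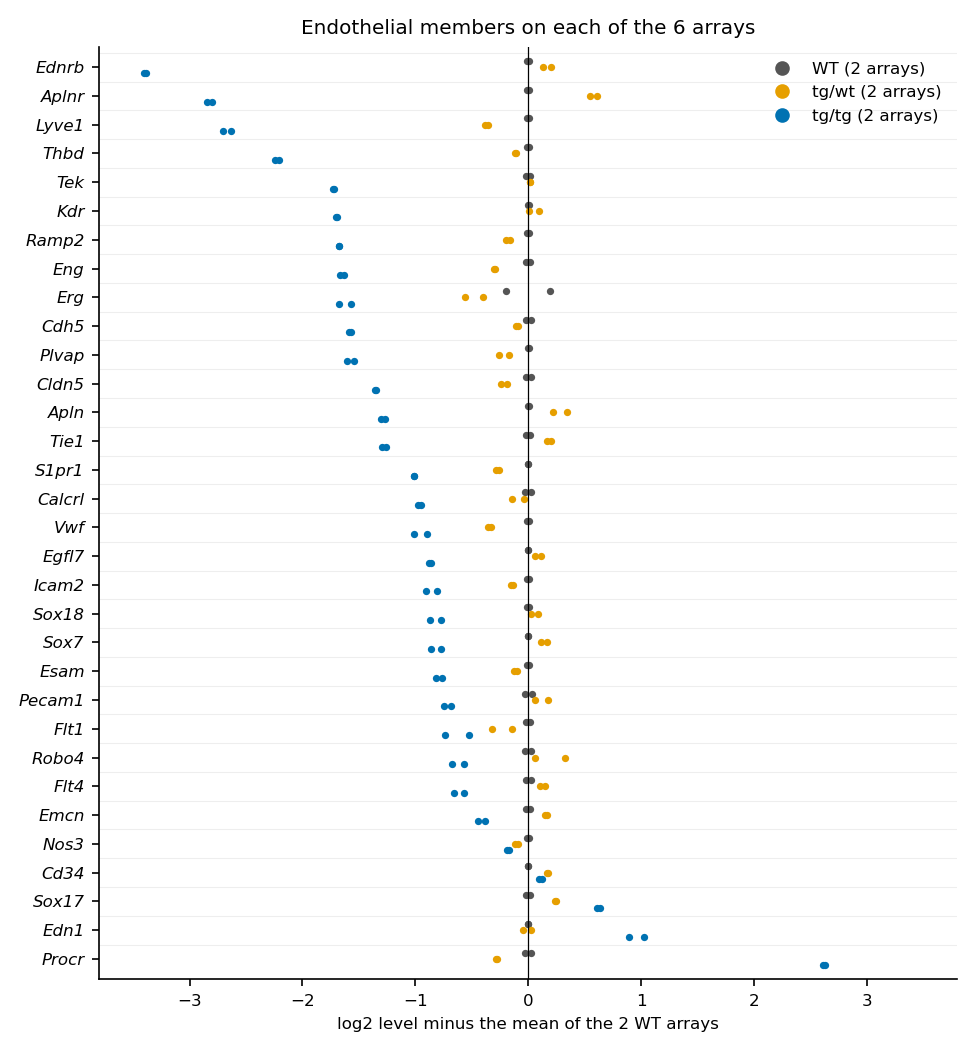
Log2 level of each of the 32 tested endothelial genes (rows, ordered by the difference of tg/tg from WT) on each array, minus the mean of the 2 WT arrays; each point is 1 array. The tg/tg points lie left of WT for 28 genes and right of it for Cd34, Sox17, Edn1 and Procr. The tg/wt points lie on average nearer WT than tg/tg, apart from Cd34 and Nos3, with Aplnr the farthest above WT.

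Among growth factor receptors, those for VEGF and angiopoietin all fell in tg/tg, by unequal amounts. Kdr, the main signalling receptor for VEGF-A, measured 3.97 and 3.99 (WT arrays), 4.07 and 3.99 (tg/wt) and 2.28 and 2.28 (tg/tg), a fall of 1.70 (SE 0.0410, limma adjusted p = 4.95e-06) or 3.25-fold. Flt1, which binds VEGF-A with little signalling and also exists as a soluble decoy, measured 5.69 and 5.66 in WT and 4.94 and 5.15 in tg/tg (log2 difference -0.63, adjusted p = 0.00272). Its second probe gave -0.73. Flt4, the VEGF-C receptor of lymphatic and some capillary endothelium, changed by -0.62, or -0.37 with normexp background correction, called in both. The 95% interval of the Kdr difference, -1.81 to -1.59, did not reach those of Flt1 (-0.87 to -0.38) and Flt4 (-0.74 to -0.49). Tek, the receptor of angiopoietins, stood at 2.19 and 2.23 (WT arrays), 2.22 and 2.23 (tg/wt) and 0.49 and 0.48 (tg/tg), a 3.31-fold fall (-1.73, SE 0.0326, adjusted p = 2.62e-06). Its partner receptor Tie1 fell 2.42-fold and endoglin (Eng), the co-receptor for BMP9 and TGF-beta, 3.14-fold. Robo4, a receptor that stabilises vessels, fell 1.54-fold.

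The ligands of these receptors were taken from a further list of angiogenic ligands and partners with 16 tested genes. Of these, 13 fell and 3 rose in tg/tg (median -0.89), against 40.8% and 33.8% of all genes. Vegfd, a ligand of Flt4, was 8.02-fold lower, with levels of 3.31 and 3.30 in WT and 0.30 on both tg/tg arrays. Angpt1, the activating ligand of Tek, was 4.89-fold lower, and its tg/tg arrays, at -4.40 and -3.86, were less alike than those of most genes here. Bmp6 fell 6.01-fold. Gdf2, which encodes the endoglin ligand BMP9, was at least 2.90-fold lower, since neither tg/tg array was well above background. Outside the rule for naming and chosen after their values were seen, Vegfa changed by -0.55, Vegfb by -1.19 and Angpt2, an antagonist of Tek, by -0.56. Pgf, a ligand of Flt1, rose by 1.29. Receptor and ligand levels thus moved the same way for Kdr and Vegfa, for Flt1 and Vegfa and for Tek and Angpt1. They moved opposite ways for Flt1 and Pgf.

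The G protein-coupled receptors Ednrb and Aplnr held the largest falls among the members. Ednrb, the endothelin B receptor, which clears endothelin and triggers nitric oxide release, measured 0.66 and 0.68 (WT arrays), 0.80 and 0.87 (tg/wt) and -2.72 and -2.74 (tg/tg) (difference -3.40, SE 0.0384, limma adjusted p = 8.16e-07). The second Ednrb probe gave -3.70. Edn1, the vasoconstrictor endothelin-1, went the other way: 0.95 and 0.96 (WT arrays), 0.98 and 0.91 (tg/wt) and 1.85 and 1.98 (tg/tg) (difference 0.96, SE 0.0596, adjusted p = 1.02e-04). For both genes the tg/tg arrays stood clear of the other 4, which lay close together. Ednra, the endothelin receptor of smooth muscle, differed by -0.27, and Ece1, the enzyme that releases mature endothelin, by -1.05; both are partners named after their values were seen. Edn3, the third endothelin, was at least 3.66-fold lower, with no tg/tg array well above background.

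Apelin and its receptor both fell in tg/tg. Aplnr measured 0.89 and 0.88 (WT arrays), 1.43 and 1.498 (tg/wt) and -1.96 and -1.91 (tg/tg), a fall of 2.82 (SE 0.0398, limma adjusted p = 1.32e-06). A dimmer Aplnr probe, not well above background in tg/tg, gave -2.15. In this gene the order of the groups did not follow the order of Tbx21, since the tg/wt arrays were the highest. Apln showed the same order, with 1.88 and 1.89 (WT arrays), 2.11 and 2.23 (tg/wt) and 0.58 and 0.61 (tg/tg) (2.44-fold lower than WT). Its 2 further probes differed by -1.47 and -1.11 in tg/tg against WT, the latter with no tg/tg array well above background. Calcrl and Ramp2, which together form the adrenomedullin receptor of endothelium, fell 1.95-fold and 3.20-fold. Ramp2 stood at 7.22 and 7.20 in WT and at 5.54 and 5.53 in tg/tg. The ligand Adm rose 2.77-fold, and Ramp3, an alternative partner of Calcrl named after its value was seen, differed by 0.68. Over all genes 40.8% were called lower and 33.8% higher in tg/tg. In the further list of endothelin, adrenomedullin and apelin partners 5 of 9 tested genes fell and 4 rose. Besides Edn3 and Adm these included Calca, which encodes calcitonin and CGRP (1.93 higher on the log2 scale), and the calcitonin receptor gene Calcr (at least 2.83-fold lower). S1pr1, the sphingosine-1-phosphate receptor that tightens endothelial contacts and lets lymphocytes leave tissues, fell 2.02-fold.

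**Figure D2:**
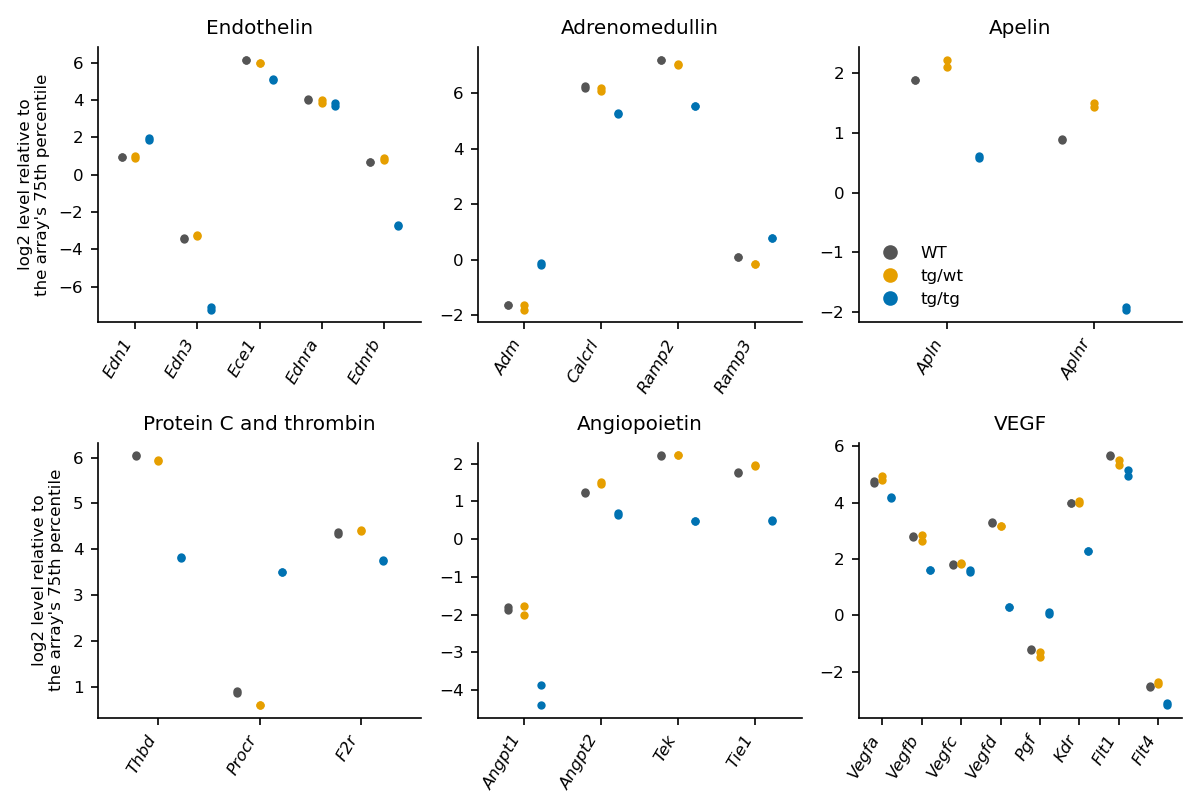
Log2 level relative to the array's 75th percentile of ligands, receptors and partners in 6 signalling systems; each point is 1 array, in the order WT, tg/wt, tg/tg for each gene. Heights of different genes are not comparable; within genes, tg/tg lies above WT for Edn1, Adm, Ramp3, Procr and Pgf and below it for the others; Ednrb fell by 3.40.

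Junction and surface genes fell in 7 of 8 cases in tg/tg, while 40.8% of all genes were called lower and 33.8% higher. Cdh5, the VE-cadherin of adherens junctions, measured 4.08 and 4.04 (WT arrays), 3.95 and 3.97 (tg/wt) and 2.47 and 2.49 (tg/tg) (difference -1.58, SE 0.0348, limma adjusted p = 3.90e-06). A second Cdh5 probe gave -1.24. Plvap, which forms the diaphragms of fenestrae and caveolae, fell 2.97-fold and Cldn5, the tight junction claudin of endothelium, 2.55-fold. Smaller falls were found for Icam2 (1.81-fold), Esam (1.73-fold), Pecam1 (1.64-fold) and Emcn (1.33-fold), adhesion and mucin-like proteins of the vessel surface, of which Pecam1 and Icam2 are also made by leukocytes and platelets. Pecam1 measured 1.62 and 1.68 in WT and 0.97 and 0.91 in tg/tg. Cd34, a sialomucin shared with haematopoietic progenitors and fibroblasts, did not fall, and it stood at 5.30 on both WT arrays, with 5.47 and 5.48 (tg/wt) and 5.399 and 5.43 (tg/tg). Its rise of 0.11 (adjusted p = 0.0276) was no longer called under 7 of 17 other settings, among them quantile normalization (0.03, adjusted p = 0.358).

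In a further list of 19 junction and caveola genes, 13 fell and 3 rose in tg/tg (median -0.41). Those calls stand against 40.8% lower and 33.8% higher over all genes. The falls were led by Cavin2 (5.24-fold), Heg1 (2.62-fold), Cav1 (2.38-fold) and Cav2 (2.19-fold). Cav1, Cav2 and Cavin2 are caveola genes and Heg1 is a receptor at endothelial junctions. Caveola genes are also made by alveolar type 1 epithelium.

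The haemostatic members divided. Thbd measured 6.04 and 6.06 (WT arrays), 5.94 and 5.93 (tg/wt) and 3.81 and 3.84 (tg/tg) (difference -2.23, SE 0.0323, limma adjusted p = 1.37e-06). Procr, its neighbour in protein C activation, measured 0.91 and 0.86 (WT arrays), 0.61 and 0.60 (tg/wt) and 3.501 and 3.51 (tg/tg) (difference 2.62, SE 0.0361, adjusted p = 1.26e-06). The tg/wt arrays of Procr were below WT and the tg/tg arrays far above it. Vwf, the platelet-binding protein stored in endothelial granules, fell 1.94-fold. Nos3, the endothelial nitric oxide synthase, changed least among the falling members, from 0.21 and 0.18 to 0.03 and 0.01 (-0.18, adjusted p = 0.00641). Of 16 tested vessel haemostasis genes outside the members, 11 rose and 3 fell in tg/tg (median 0.86). The shares over all genes were 33.8% higher and 40.8% lower. Plau, the urokinase gene, was 6.60-fold higher, Tfpi2 2.24-fold higher (dim in WT, where a single array passed the background test), and Ptgis, the prostacyclin synthase, 3.12-fold lower.

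Transcription factors of the lineage also divided, within a single family. Sox7, Sox17 and Sox18 form the SoxF group, which shares roles in vessel and lymphatic development. Sox7 measured 1.94 and 1.94 (WT arrays), 2.11 and 2.05 (tg/wt) and 1.08 and 1.17 (tg/tg), and Sox18 measured 2.76 and 2.78, 2.86 and 2.79, and 1.89 and 1.997. They fell 1.76-fold and 1.77-fold. Sox17, the arterial member, was instead highest in tg/tg and intermediate in tg/wt: 2.05 and 2.09 (WT arrays), 2.32 and 2.30 (tg/wt) and 2.68 and 2.71 (tg/tg) (0.62, SE 0.0349, limma adjusted p = 7.03e-05). A second Sox17 probe gave 0.74, and the third, a dim probe, gave 0.52 (adjusted p = 0.0878). Erg, the ETS factor that keeps endothelial genes active, fell 3.07-fold, from -2.24 and -2.64 to -4.01 and -4.11. This dim gene depended on the background correction: with normexp the difference was -0.97, still called. Of 19 tested endothelial transcription factors outside the members, 12 fell and 3 rose (median -0.42, or -0.33 with a gene below background at its bound). All genes together gave 40.8% lower and 33.8% higher. Foxf1 (2.99-fold), Epas1 (2.78-fold), Klf4 (2.40-fold) and Gata2 (2.28-fold) fell furthest. Fli1, an ETS factor of endothelium and blood cells named after its value was seen, differed by 0.54.

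Promoter sequences of 18 of the 33 members were found in RefSeq (GRCm38.p6), as 23 windows. Those shown belong to the matched members with the largest falls and the largest rises in tg/tg that have a single window, each giving the 250 bases before the start, 5′ to 3′ on the gene's strand. Capitals mark the ETS core GGAA (TTCC on the other strand) and the AP-1 motif TGANTCA.
Ednrb, chr14:103843702-103843951, minus strand: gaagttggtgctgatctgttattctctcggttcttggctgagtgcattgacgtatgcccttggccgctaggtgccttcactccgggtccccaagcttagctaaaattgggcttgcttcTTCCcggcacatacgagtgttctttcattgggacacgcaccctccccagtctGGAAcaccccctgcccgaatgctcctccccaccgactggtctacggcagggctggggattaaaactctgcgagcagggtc
Tek, chr4:94739039-94739288, plus strand: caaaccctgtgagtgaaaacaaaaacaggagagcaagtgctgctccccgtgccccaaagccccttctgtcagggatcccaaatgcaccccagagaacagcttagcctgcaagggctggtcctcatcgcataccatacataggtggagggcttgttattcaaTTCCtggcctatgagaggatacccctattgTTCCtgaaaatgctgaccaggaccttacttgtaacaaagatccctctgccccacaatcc
Procr, chr2:155750967-155751216, plus strand: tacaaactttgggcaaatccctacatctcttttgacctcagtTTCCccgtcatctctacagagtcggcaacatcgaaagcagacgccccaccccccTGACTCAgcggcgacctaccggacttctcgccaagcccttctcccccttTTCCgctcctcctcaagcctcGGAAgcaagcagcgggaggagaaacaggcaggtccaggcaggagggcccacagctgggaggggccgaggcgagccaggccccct
Edn1, chr13:42301226-42301475, plus strand: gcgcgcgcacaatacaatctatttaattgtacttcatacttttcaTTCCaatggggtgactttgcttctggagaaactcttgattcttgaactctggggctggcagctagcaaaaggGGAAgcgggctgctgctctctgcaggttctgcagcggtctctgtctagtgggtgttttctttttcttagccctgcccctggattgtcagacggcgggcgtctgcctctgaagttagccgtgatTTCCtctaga
The ETS core occurred in 91.3% of the 23 member windows and in 93.45% of all 32851 windows of this length. The printed windows hold 2, 2, 3 and 3 copies for Ednrb, Tek, Procr and Edn1. The AP-1 motif occurred in 1 member window, that of Procr (4.35%, against 6.75% of all). The SOX core ACAAT was present in 30.4% of member windows and 27.7% of all, and the KLF core CCACCC in 34.8% and 28.1%. The interferon-gamma activated site TTCNNNGAA had no match in member windows and matched 7.02% of all. The core of the interferon-stimulated response element matched 1 member window, that of Edn1 (4.35%, against 2.98% of all). Other motifs were searched too. The hypoxia element core ACGTG (16.57% of all), the FOX core (3.17%) and the NF-kB core (1.41%) had no match in member windows. The GATA motif matched 4.35% of member windows and 9.99% of all, and the TATA box 13.04% and 12.37%. With 23 member windows these shares are imprecise. Both strands were searched, matches of different motifs may overlap, and a match describes letters, not a bound factor.

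Of the lymphatic members Prox1 was too dim, as stated above, and Lyve1, the hyaluronan receptor of lymphatic vessels, was tested. It measured 3.92 and 3.94 (WT arrays), 3.57 and 3.55 (tg/wt) and 1.23 and 1.30 (tg/tg) (difference -2.67, SE 0.0393, limma adjusted p = 1.43e-06), and its second probe gave -2.72. Lyve1 is also made by a population of interstitial macrophages. Of the 7 tested genes on a further lymphatic list, 2 fell and 2 rose (median 0.11): Tbx1 (1.84-fold) and Itga9 (1.30-fold) were lower, and Pdpn (2.29-fold) and Gja1 (1.83-fold), which epithelium and fibroblasts also express, were higher. Those calls compare with 40.8% lower and 33.8% higher over all genes. Egfl7, a matrix-bound protein secreted by endothelium, fell 1.83-fold.

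**Figure D3:**
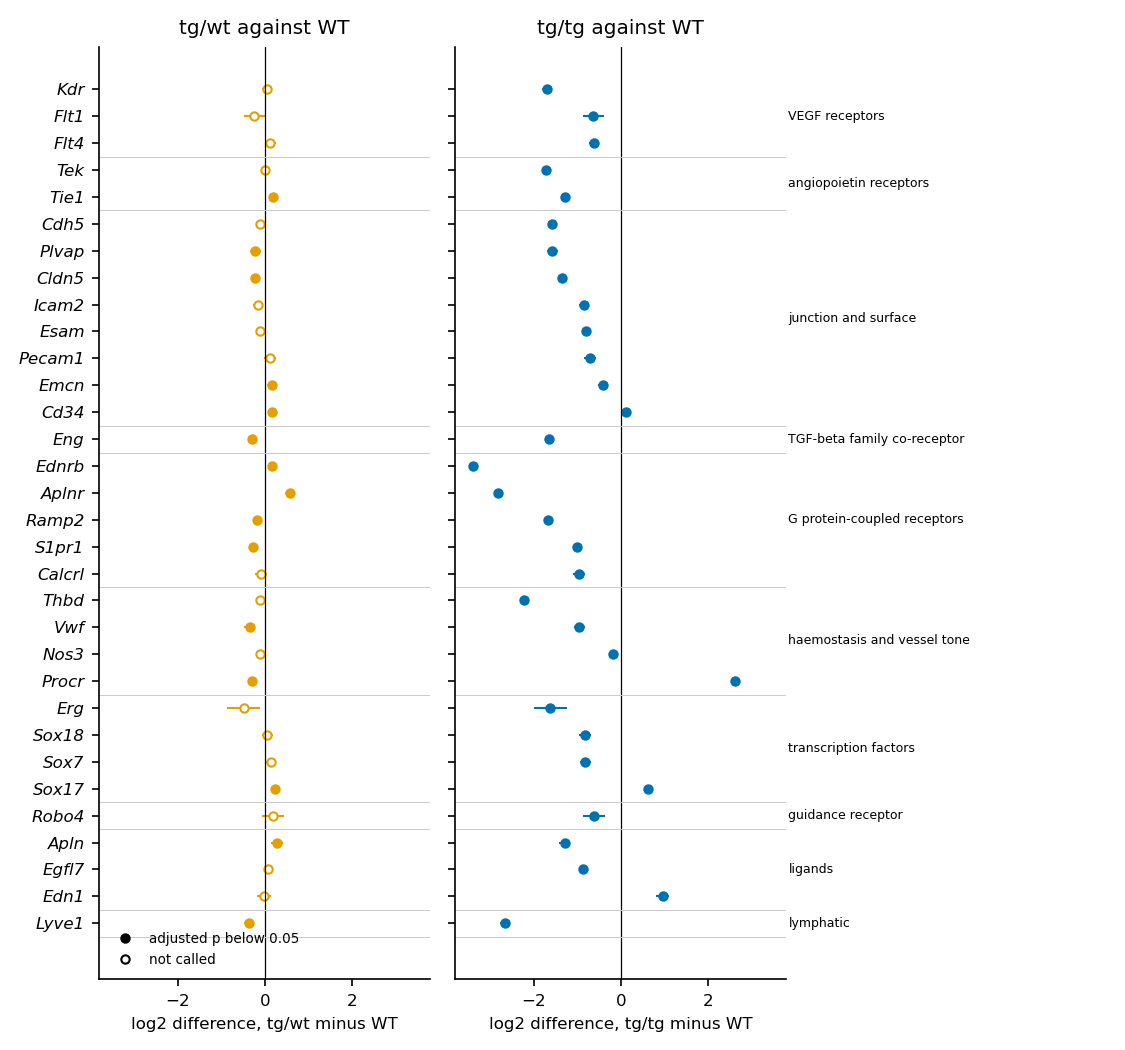
Log2 difference from WT in tg/wt (left) and tg/tg (right) for the 32 endothelial genes, grouped by role; bars are 95% intervals of the fit on 6 arrays, filled points have an adjusted p below 0.05. On the right Cd34, Procr, Sox17 and Edn1 lie above 0; on the left no difference exceeds 0.58 in size where called.

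In tg/wt lungs, where Tbx21 was 4.06-fold above WT, the differences of endothelial genes from WT were small. In either direction 15 members (46.9%) were called, against 27.9% of all genes. Of the 32, 8 were called lower and 7 higher, against 14.6% lower and 13.4% higher over all genes, and the median difference was -0.05. Both tg/wt arrays lay below both WT arrays for 16 members and above them for 14, where 37.5% and 34.9% of all genes did so. The lower ones were Lyve1 (-0.37), Vwf (-0.34), Eng (-0.30), Procr (-0.28), S1pr1 (-0.27), Cldn5 (-0.21), Plvap (-0.21) and Ramp2 (-0.18). Higher were Aplnr (0.58, limma adjusted p = 0.00153), Apln (0.28), Sox17 (0.24), Tie1 (0.18), Cd34 (0.17), Ednrb (0.17) and Emcn (0.16). Among the genes not called, the 95% interval was -0.07 to 0.10 for Tek, -0.06 to 0.16 for Kdr and -0.17 to 0.14 for Edn1. Procr was lower in tg/wt and higher in tg/tg, while Aplnr, Apln, Ednrb, Tie1 and Emcn were higher in tg/wt and lower in tg/tg, both against the same WT arrays. The tg/wt call behind this was lost under 13 of 18 other settings for Ednrb, further probe included, 6 of 17 for Emcn, 5 of 17 for Tie1, 5 of 19 for Apln and 2 of 17 for Procr, and under none of 18 for Aplnr. These counts depended on single arrays: without WT 1 there were 2 lower and 1 higher, without WT 2 they were 5 and 1, without tg/wt 1 they were 4 and 2, and without tg/wt 2 they were 3 and 1. Aplnr, S1pr1 and Lyve1 stayed called under each of the 17 settings other than further probes, but the second probe of Lyve1 was not called (-0.31, limma adjusted p = 0.144). The higher values of Sox17, Ednrb and Apln had the opposite sign on 1 further probe each (-0.010, -0.069 and -0.040, none of them called), and Cdh5, not called on either probe, measured -0.10 and 0.22.

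Between tg/tg and tg/wt, 27 members were lower and 3 higher, with 40.2% and 34.0% of all genes called in those directions, and the median difference was -0.92. The 30 called in either direction compare with 74.2% of all genes. Without overlap of the arrays, 29 lay lower and 3 higher (47.4% and 40.1% of all genes). Sox17 (0.38), Edn1 (0.97) and Procr (2.91) were the higher ones. Nos3 (-0.07, limma adjusted p = 0.102) and Cd34 (-0.06, adjusted p = 0.147) were not called. The largest falls were those of Ednrb (-3.56) and Aplnr (-3.40).

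Genes of the capillary bed outside the members were mostly lower in tg/tg than in WT. In that comparison 40.8% of all genes were called lower and 33.8% higher. All 14 tested genes of the general capillary list fell (median -1.14), among them Hpgd (16.5-fold), which degrades prostaglandins, Tmem100 (6.24-fold), a gene downstream of BMP9, Tspan7 (4.96-fold) and Sema3c (3.24-fold). Of 11 aerocyte genes 10 fell (median -1.73): Fibin (15.5-fold) went from 4.63 and 4.65 to 0.64 and 0.74, Rprml fell 7.89-fold, Cyp4b1 6.42-fold and Car4, the carbonic anhydrase on the aerocyte surface, 5.20-fold. Igfbp7 was not called. These lists hold genes that epithelium also expresses, such as Cyp4b1 and Hpgd. In tg/wt 2 of the 14 and 2 of the 11 were lower and 1 aerocyte gene, Prx, was higher. Over all genes 14.6% were called lower and 13.4% higher in tg/wt.

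Genes of larger vessels gave a mixed picture. The counts of this paragraph stand against 40.8% of all genes called lower and 33.8% higher in tg/tg. Of 17 artery and Notch genes 12 fell and 3 rose in tg/tg (median -0.91). Ltbp4 (7.91-fold), Efnb2 (3.72-fold) and Gja5 (3.43-fold) were lower, and Bmx was at least 2.32-fold lower. The 3 that rose were Cxcl12 (0.51), Gja4 (0.51) and Unc5b (0.33). Of 8 vein genes 6 fell, led by Slc6a2 (8.44-fold), Prss23 (3.62-fold) and Car8 (1.99-fold), while Ackr1, a chemokine-binding receptor of venules and red cells, rose 36.9-fold. Adhesion and cytokine genes of activated endothelium rose in 6 of 7 cases (median 2.31, or 2.03 with bounds): Ccl2 was 81.5-fold, Il6 at least 32.2-fold, Csf3 at least 4.09-fold and Selp, the P-selectin gene, 4.94-fold higher. Cx3cl1 was the exception (-0.61). Of 8 leukocyte genes 6 rose in the same comparison, and which lung cells made the RNA of the activated endothelium list was not tested. Sele, the E-selectin gene, was too dim to be tested.

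**Figure D4:**
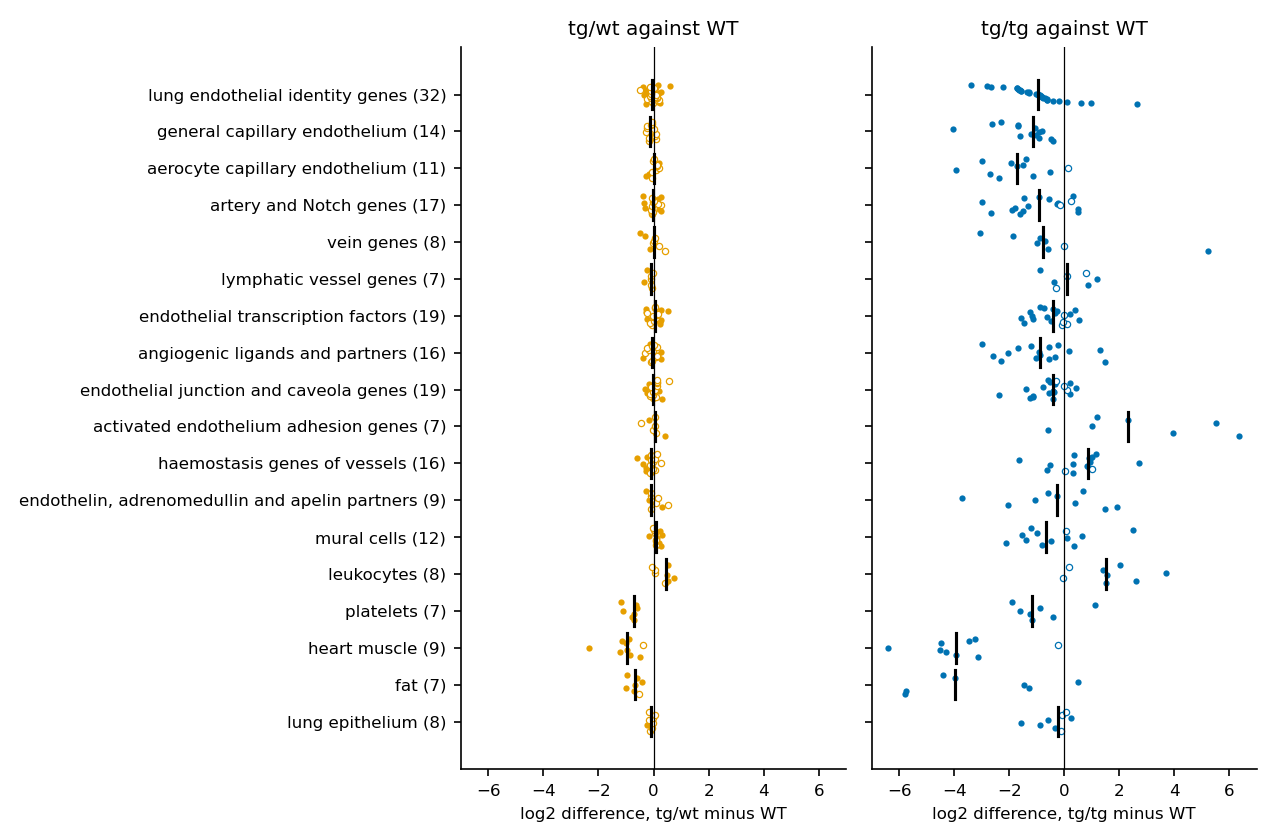
Log2 difference from WT in tg/wt (left) and tg/tg (right) for the endothelial members and each further list, with the number of tested genes in brackets; each point is 1 gene, filled where called, and the black bar is the median. In tg/tg the medians run from -3.97 for fat and -3.93 for heart muscle to 2.31 for activated endothelium; with genes below background at their bound, fat is at -2.56, heart muscle is the lowest and activated endothelium is at 2.03, with -0.96 for the members.

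Markers of other cells moved in the same comparison, tg/tg against WT, in which 40.8% of all genes were called lower and 33.8% higher. Of 8 leukocyte genes 6 rose in tg/tg and none fell, led by Itgam (13.0-fold), Cd52 (6.06-fold), Ptprc (4.02-fold) and Coro1a (2.90-fold). Their summed level, in multiples of the array's 75th percentile, was 326 to 331 in WT, 290.1 to 367 in tg/wt and 439 to 491 in tg/tg. The summed level of the 32 endothelial genes was 801 to 804, 749 to 763 and 386 to 395. Sums are carried by the brightest probes and can be compared between groups within a list, not between lists. Of 9 heart muscle genes 8 fell (Nppa 83.8-fold, Myl7 22.6-fold, Sln 22.3-fold, Myl4 19.6-fold), with sums of 230.4 to 234, 113 to 114 and 13.5 to 13.9. Of 7 fat genes 6 fell and Lipe rose (Adipoq 54.9-fold and Plin1 15.7-fold, both dim in tg/tg, where a single array passed the background test, Cfd 54.4-fold, Retn at least 5.91-fold), with sums of 32.8 to 33.9, 20.3 to 20.5 and 5.30 to 5.34. In tg/wt 8 heart and 6 fat genes were lower (medians -0.98 and -0.68) and 4 leukocyte genes higher. The tg/wt shares over all genes were 14.6% lower and 13.4% higher. Vessels of heart muscle and fat carry endothelial genes too, and the part of these tissues and of leukocyte RNA in the endothelial differences was not tested. Every tested leukocyte, heart and fat gene was well above background on both arrays of each group, other than Retn, Adipoq, Plin1 and the B cell gene Cd79a in tg/tg.

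Mural cells, which wrap vessels, gave 7 lower and 4 higher of 12 genes in tg/tg. Of all genes, 40.8% and 33.8% were called in those directions. The contractile genes Cnn1 (4.29-fold), Myh11 (2.89-fold) and Des (2.63-fold) were lower, the pericyte gene Rgs5 was 5.68-fold higher, and the pericyte receptor gene Pdgfrb was not called (0.07). Their summed level was 163 to 164 in WT, 173 on both tg/wt arrays and 91.3 to 93.3 in tg/tg. Platelet genes bear on Vwf and Pecam1, which platelets also hold. All 7 tested were lower in tg/wt, where 14.6% of all genes were called lower. Their median there was -0.72, and the sum fell from between 14.5 and 15.01 in WT to between 7.84 and 8.21. In tg/tg 6 of the 7 were lower (Ppbp 3.71-fold, Gp9 3.05-fold, Gp5 2.39-fold, Gp1ba 2.25-fold), and the median was -1.17. Pf4 was 2.16-fold higher, and Pf4 alone carried the sums, 16.1 to 16.6, above those of WT. The part of platelet RNA in the lower Vwf of tg/wt was not tested. Lung epithelial genes fell in 4 of 8 cases and rose in 1, against 40.8% and 33.8% of all genes. The median was -0.23: Hopx was 2.98-fold, Foxj1 1.85-fold, Scgb1a1 1.51-fold and Ager 1.26-fold lower.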

How the data were processed

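Total lung RNA was labelled with Cy3 and hybridised to single-colour Agilent mouse arrays. Per the file headers, the spot intensity comes from version 9.5.3.1 of the Agilent extraction software, while the submitters' processing notes name version 9.1; which made the files is not settled here. Per the file headers the processed intensity is linear, background-subtracted within the array and not scaled between arrays. The deposited series values equal, per feature, the deposited intensity after background subtraction for all 45018 features of each array (relative tolerance 1e-04).

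Control and outlier spots were left out, spots of a probe were averaged as log2, and each array's 75th percentile over probes was subtracted. Of 41174 probes 22951 had a RefSeq symbol by accession (assembly GRCm38) and 18223 had none. Probes well above background on at least 2 of 6 arrays entered, and the brightest probe stood for a gene (12968 genes). Groups came from the genotype labels. A single model of 3 group means over 6 arrays was fitted in limma 3.58.1 (lmFit, eBayes, R 4.3.3; 3 residual and 1.77 prior degrees of freedom), with Benjamini-Hochberg adjustment over all genes and a threshold of 0.05. The number of arrays limits the precision. Replicate arrays differed by 0.0598 to 0.106 (root mean square, log2) over 179 probes with repeated spots, more than the 0.0330 to 0.0363 expected from spot noise, so no array is a copy of another; this does not show that they hold separate RNA samples.

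Where both arrays of the dimmer group failed the background test, the fold is a bound ("at least"): on each dim array the probe was raised to the lowest signal found well above background, if below it, before the means were compared. The members and lists were chosen with earlier results of these data known. All members are named, and from each further list up to 4 called genes with the largest change in tg/tg (a gene that is not reported here left out); list members that went against their list, partners of members and genes of small counts are named outside this rule, with values in view. Nrp1, Ptprb and Adm stand on 2 lists each. Promoter sequences are those of RefSeq. Figures used Python 3.11.15 and matplotlib 3.10.9.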

Additional observations from a re-analysis of the deposited data

How the results depend on the processing

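The 28 lower members in tg/tg against WT were 28 under all 17 alternatives, which covered a normexp background correction (offset 50), quantile or median scaling, no filter, a stricter filter or a floor, the mean of a gene's probes, the series values, a variance trend, only the groups compared (for tg/tg and WT this is the fit within slide 1), a replicate block and leaving out each array. The higher count was 4, or 3 where Cd34 was not called. Between tg/tg and tg/wt 26 to 28 were lower and 3 higher. In tg/wt against WT the counts moved: 7 higher became 4 without a filter, 4 with the mean of a gene's probes and 4 with the replicate block, and leaving out single arrays gave 2 to 9 lower and 1 to 6 higher; those fits have fewer arrays. Over all genes, leaving out a WT or tg/wt array gave 595 to 888 lower and 746 to 919 higher genes in place of 1887 and 1732, and no filter gave 1208 and 1200. Further probes, added after seeing the data, reversed the sign of Sox17 (-0.010), Ednrb (-0.069) and Apln (-0.040) in tg/wt, and Cdh5, not called on either probe, went from -0.10 to 0.22; the cause was not tested. In tg/tg all 10 further probes of 8 members had the sign of the main probe, and 9 were called.

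Replicate numbers are shared between groups, but deviations of same-numbered arrays correlated at 0.13, -0.05 and -0.05, so they were not taken as pairs; with the replicate block 28 lower and 3 higher members were called in tg/tg against WT, 7 and 4 in tg/wt against WT, and 27 and 3 in tg/tg against tg/wt.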
